A study of Rattus norvegicus with 18 samples.

Results

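The genes described here are 7 antioxidant defence genes of the rat heart: Hmox1 (ENSRNOG00000014117), Nqo1 (ENSRNOG00000012772), Cat (ENSRNOG00000008364), Sod1 (ENSRNOG00000002115), Sod2 (ENSRNOG00000019048), Gclc (ENSRNOG00000006302) and Nfe2l2 (ENSRNOG00000001548). They were chosen by these Ensembl identifiers, paired with the names in the choice itself. The rule used measured values only to drop an identifier under 1 FPKM (defined below) in all libraries, and it dropped none. Earlier results of these data were known when the rule was written. All 7 were listed in the files, out of 37262 genes. Each was above 1 FPKM (sequenced fragments scaled to gene length and to library size, the unit as which the deposited values were read) in all 18 libraries, so all 7 were among the 17397 genes kept for testing. The libraries came from rRNA-depleted RNA of heart tissue, 6 in each of 3 groups. WKY is the Wistar-Kyoto rat, the normotensive strain. SHR is the spontaneously hypertensive rat, and this group was given NS. QDG is the group of SHR treated with QDG. The labels give no age, sex, dose or duration, leave NS and QDG as abbreviations, and do not state whether WKY rats received NS. A difference of SHR from WKY is therefore one between SHR given NS and WKY. The labels do not say which libraries are separate animals, so each p-value below reflects library-to-library spread, which may be technical.

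Antioxidant defence works in layers. Superoxide leaking from mitochondria, which fill much of the heart muscle cell, is turned into hydrogen peroxide by superoxide dismutases, and catalase and the glutathione and thioredoxin systems remove the peroxide. Many enzymes of this system are under the transcription factor NRF2, encoded by Nfe2l2. Its partner KEAP1 marks it for degradation in unstressed cells, and oxidants release it to bind antioxidant response elements near its target genes. NRF2 is thus controlled largely at the protein level, which RNA sequencing does not measure. Nqo1, Hmox1 and Gclc are classical NRF2 targets.

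Of the 7 genes, Nqo1 and Cat passed the test of SHR against WKY (limma adjusted p under 0.05), at 1.23 and 1.17 times the WKY mean FPKM, where 24.8% of all genes tested passed and 12.2% passed as higher. The fitted log2 difference was also positive for 4 of the other 5, without passing, and the call for Cat ended under quantile normalization (limma adjusted p = 0.0746). The sequences before Nqo1 and Cat are shown because these are the members called between the strains. Both are the 250 bases before the RefSeq gene start, on the strand of the gene, in assembly GRCr8. Nqo1 lies at chr19:52220268-52220517 on the minus strand and Cat at chr3:110329527-110329776 on the minus strand. Capitals mark matches, on either strand, to letters of 4 motifs. The TATA box was searched as TATAAA. The CCAAT box was searched by the letters of its name. The GC box was searched as GGGCGG. For the core of the antioxidant response element the letters were TGACNNNGC. No match overlapped another in these 2 sequences.
Nqo1: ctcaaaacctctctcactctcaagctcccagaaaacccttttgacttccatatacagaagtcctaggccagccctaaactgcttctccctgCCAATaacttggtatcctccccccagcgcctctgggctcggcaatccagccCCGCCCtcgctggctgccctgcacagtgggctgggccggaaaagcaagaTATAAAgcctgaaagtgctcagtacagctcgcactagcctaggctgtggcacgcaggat
Cat: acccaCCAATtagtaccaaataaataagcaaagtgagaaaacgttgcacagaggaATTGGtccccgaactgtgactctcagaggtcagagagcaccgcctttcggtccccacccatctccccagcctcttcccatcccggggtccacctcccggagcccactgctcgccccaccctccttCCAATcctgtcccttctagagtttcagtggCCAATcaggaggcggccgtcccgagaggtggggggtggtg

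The Nqo1 sequence held 1 TATA box, 1 CCAAT box and, on the other strand, 1 GC box. The Cat sequence had 4 CCAAT boxes, 3 on the gene strand and 1 on the other, and no TATA box or GC box by these letters. Over 33469 RefSeq promoters, the same window held the TATA box letters in 12.9%, the CCAAT box in 34.0%, the GC box in 30.5% and the response element core in 10.1%. Entries were found for 6 of the 7 genes, all except Hmox1. The response element core occurred in 1 of these 6 windows, before Sod2 on the other strand (GCAGGGTCA, starting 35 bases before the gene). These letters were not in the windows of Nqo1, Cat, Sod1, Gclc or Nfe2l2, which says nothing of sites farther away.

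The 7 genes spanned a wide range of levels. Sod2, the mitochondrial manganese superoxide dismutase, had the highest mean over the 18 libraries, 173 FPKM, and ranked 267 among the genes kept. Sod1, the copper-zinc enzyme of the cytosol, followed at 130 FPKM and Cat, the peroxide-degrading catalase, at 88.3 FPKM. Nfe2l2 was at 17.5 FPKM. Hmox1, whose product heme oxygenase 1 breaks down heme, was at 8.32 FPKM, and Nqo1, a quinone reductase, at 7.65 FPKM. Gclc, the catalytic subunit of the rate-limiting enzyme of glutathione synthesis, was lowest at 5.68 FPKM and ranked 8215. In this order the ranges over libraries did not overlap from Sod2 (158 to 192 FPKM) to Sod1 (118 to 141) to Cat (65.9 to 102) to Nfe2l2 (14.8 to 20.7). Hmox1 (5.60 to 14.2) and Nqo1 (6.11 to 9.17) overlapped, as did Nqo1 and Gclc (4.44 to 6.997).

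**Figure D1:**
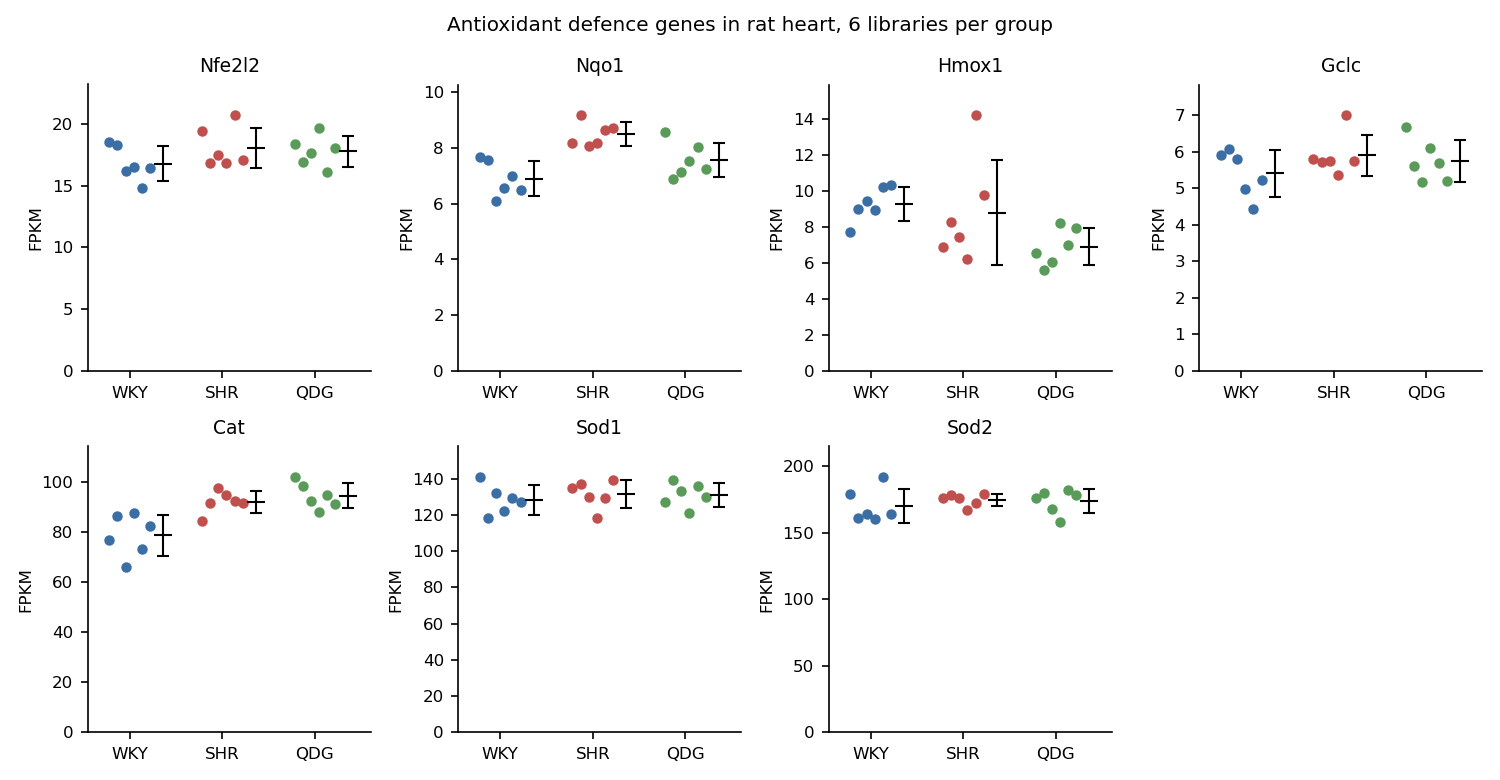
FPKM of each gene (vertical axis, linear from 0) in every library of the 3 groups (points), with the group mean and SD at the right of each group (bar and whiskers, n = 6). Nqo1 in SHR and Cat in QDG lie wholly above WKY, and for Cat 5 of 6 SHR libraries exceed every WKY library. In SHR, 1 library stands highest for Hmox1 (14.2 FPKM) and Gclc (6.997 FPKM).

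Nfe2l2 itself lay between 14.8 and 18.5 FPKM in WKY (median 16.5), between 16.8 and 20.7 in SHR (median 17.3) and between 16.1 and 19.7 in QDG-treated SHR (median 17.8). The 3 groups overlapped throughout. Mean levels were 16.8 ± 1.40 FPKM for WKY and 18.05 ± 1.61 for SHR (SD, n = 6 each), a difference of 0.10 on the log2(FPKM + 1) scale with a 95% interval of -0.03 to 0.23 (limma adjusted p = 0.282). After QDG it was 17.8 ± 1.24 FPKM (SD, n = 6), and the difference from SHR was -0.02 (interval -0.15 to 0.11, limma adjusted p = 0.954). On that scale the intervals bound a change of the Nfe2l2 transcript to between 0.976 and 1.17 times for SHR against WKY and between 0.900 and 1.08 times for QDG against SHR.

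Nqo1, which reduces quinones by transferring 2 electrons at once and so avoids semiquinone radicals, was higher in SHR. It lay between 6.11 and 7.67 FPKM in WKY (median 6.78), between 8.05 and 9.17 in SHR (median 8.42) and between 6.87 and 8.55 in QDG-treated SHR (median 7.38). All 6 SHR libraries were above all 6 WKY libraries, as they were for 6.41% of the 17397 genes tested. The log2 fold change of SHR against WKY was 0.27 (SE 0.06, interval 0.14 to 0.39, limma adjusted p = 0.00236). In this comparison 24.8% of all genes tested were called at an adjusted p under 0.05 and 12.2% were called higher, and Nqo1 was 1 of 2 members called, both higher. QDG-treated hearts lay between: 5 of the 6 QDG libraries were below every SHR library and 2 of the 6 were above every WKY library. The difference of QDG from SHR was -0.15 (SE 0.06, interval -0.27 to -0.03), with an unadjusted limma p of 0.0204 and an adjusted p = 0.369, so it did not pass. Against WKY the QDG group differed by 0.12 (interval -0.01 to 0.24, limma adjusted p = 0.186). The latter comparisons each share libraries with the strain comparison.

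Hmox1 had the widest relative spread of the 7 within SHR and within QDG-treated SHR. Its values ran from 7.74 to 10.3 FPKM in WKY (median 9.22), from 6.21 to 14.2 in SHR (median 7.85) and from 5.60 to 8.21 in QDG-treated SHR (median 6.76). SHR overlapped both other groups, and 4 of the 6 QDG libraries were below every WKY library. Within SHR the coefficient of variation was 33.2%, against a median of 11.3% over all genes kept, and larger than for 91.1% of them. It was 10.3% in WKY, below Gclc (11.8%) and Cat (10.5%) there, and 14.96% in QDG-treated SHR. The highest SHR library, replicate 5, was at 14.2 FPKM and the next at 9.75. The difference of SHR from WKY was -0.11 (SE 0.14, interval -0.40 to 0.18, limma adjusted p = 0.612), and with 1 library left out it ran from -0.25 without SHR replicate 5 (limma adjusted p = 0.0956) to -0.03 without SHR replicate 4 (limma adjusted p = 0.900). For QDG against SHR it was -0.28 (SE 0.14, interval -0.57 to 0.02, limma adjusted p = 0.519), and with 1 library left out it ran from -0.35 to -0.14, the latter without SHR replicate 5 (limma adjusted p = 0.653).

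Over the 3 comparisons the largest difference among the members was that of Hmox1 between QDG-treated SHR (6.89 ± 1.03 FPKM) and WKY (9.27 ± 0.954, SD, n = 6 each). It was -0.39 on the log2 scale (SE 0.14, interval -0.68 to -0.09) and missed the threshold with a limma adjusted p = 0.0569. Under 29 alternatives it passed 11 times, and the adjusted p ran from 0.00755 to 0.122. Among these, the 12 libraries of the 2 groups alone gave an adjusted p = 0.00755 and a replicate block 0.0305. Leaving out 1 library gave 0.0438 without WKY replicate 1, 0.0449 without QDG replicate 4, and, through the shared estimate of spread, 0.0426 without SHR replicate 4 and 0.00840 without SHR replicate 5. In whole tissue, fewer cells of a type and less RNA per cell cannot be told apart. Markers of cell types were not analysed here, since the files pair no identifiers with names.

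Gclc lay between 4.44 and 6.07 FPKM in WKY (median 5.50), between 5.36 and 6.997 in SHR (median 5.75) and between 5.16 and 6.68 in QDG-treated SHR (median 5.66). The groups overlapped, and 5 SHR libraries sat close together at 5.36 to 5.81 with replicate 5 above them. The difference was 0.11 for SHR against WKY (interval -0.05 to 0.26, limma adjusted p = 0.309), -0.03 for QDG against SHR (interval -0.19 to 0.12, limma adjusted p = 0.923) and 0.08 for QDG against WKY (interval -0.08 to 0.23, limma adjusted p = 0.534).

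Cat, the peroxisomal enzyme that splits hydrogen peroxide into water and oxygen, was higher in both SHR groups than in WKY. Its level was between 65.9 and 87.4 FPKM in WKY (median 79.5), between 84.3 and 97.4 in SHR (median 91.9) and between 88.1 and 102 in QDG-treated SHR (median 93.5). In SHR, 5 of 6 libraries exceeded every WKY library, and all 6 QDG libraries did so, as they did for 5.83% of all genes tested. The 3 group means were 78.6 ± 8.28, 91.9 ± 4.37 and 94.5 ± 5.16 FPKM in that order (SD, n = 6 each). The log2 fold change was 0.23 for SHR against WKY (SE 0.06, interval 0.10 to 0.36, limma adjusted p = 0.0113) and 0.27 for QDG against WKY (SE 0.06, interval 0.14 to 0.40, limma adjusted p = 0.00404). Both use the same WKY libraries. Quantile normalization, which forces all libraries to 1 distribution, ended the strain call for Cat (0.19, limma adjusted p = 0.0746). In the QDG against WKY comparison 20.9% of all genes tested were called and 11.7% were called higher, and Cat was the 1 member called. Between QDG and SHR the difference was 0.04 (interval -0.09 to 0.17, limma adjusted p = 0.879).

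**Figure D2:**
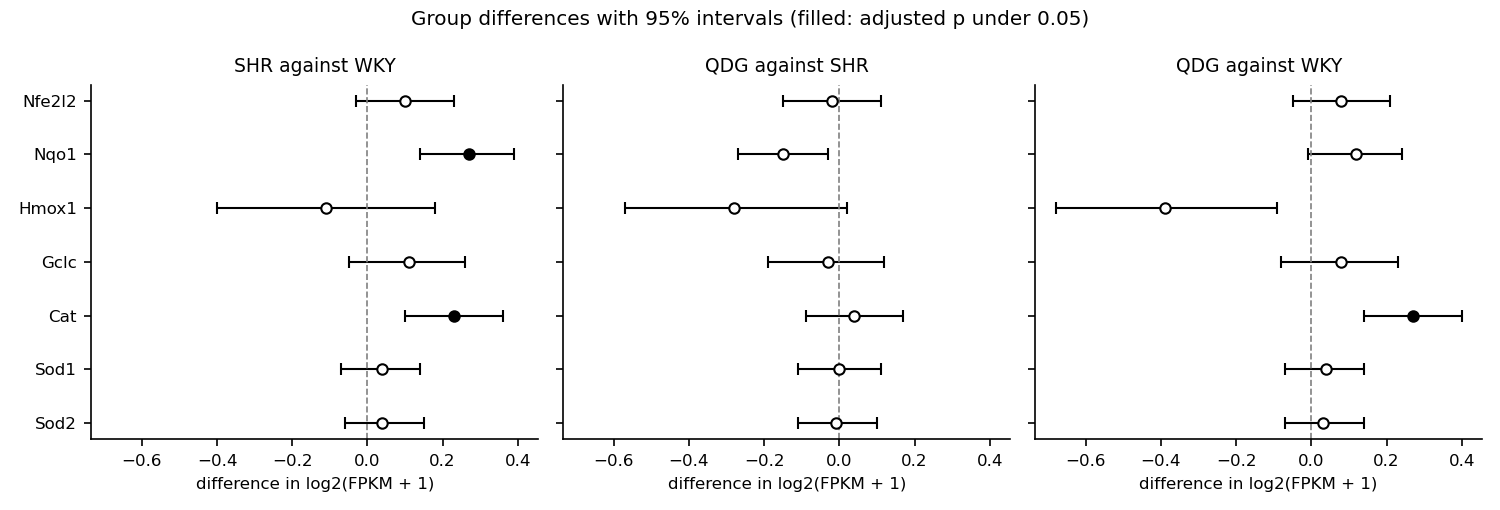
Differences in log2(FPKM + 1) between groups (horizontal axis) for each gene, with 95% intervals from limma (whiskers). Filled points, at an adjusted p under 0.05, are Nqo1 and Cat in SHR against WKY and Cat in QDG against WKY, and no point is filled in QDG against SHR.

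The superoxide dismutases varied little. Sod1 lay between 118 and 141 FPKM in WKY (median 128), between 118 and 139 in SHR (median 132) and between 121 and 139 in QDG-treated SHR (median 132). Sod2 lay between 160 and 192 FPKM in WKY (median 164), between 167 and 179 in SHR (median 176) and between 158 and 182 in QDG-treated SHR (median 177). For neither gene did any SHR library leave the WKY range at the top, and the groups overlapped throughout. The strain difference was 0.04 for Sod1 (interval -0.07 to 0.14, limma adjusted p = 0.647) and 0.04 for Sod2 (interval -0.06 to 0.15, limma adjusted p = 0.605). On the log2(FPKM + 1) scale these intervals bound the change in SHR to between 0.953 and 1.11 times for Sod1 and between 0.956 and 1.11 times for Sod2. For QDG against SHR they were 0.927 to 1.08 times and 0.924 to 1.07 times (limma adjusted p = 0.994 and 0.973). Within SHR, Sod2 had a coefficient of variation of 2.42%, and 0.667% of the genes kept had a lower one. It was 7.58% in WKY and 5.35% in QDG-treated SHR, where 17.1% and 8.55% of the genes kept had a lower one. Genes of like abundance were not compared.

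The members were also set beside all genes tested. For SHR against WKY 2 of the 7 were called (2 higher, 0 lower), beside 24.8% of all genes tested. Of the 7, 6 had a positive difference, called or not, and 1 a negative one. Their median log2 fold change was 0.10, against -0.01 over all genes tested, and their median absolute value 0.11, against 0.14. For QDG against SHR 0 of the 7 were called, beside 0.293% of all genes tested (limma), and 1 of the 7, Nqo1, had an unadjusted limma p under 0.05, as had 10.4% of all genes tested. There 1 of the 7 had a positive difference and 6 a negative one, with a median log2 fold change of -0.02 against 0.02 over all genes and a median absolute value of 0.03 against 0.07. The differences of Sod1 (-0.00), Sod2 (-0.01), Nfe2l2 (-0.02) and Gclc (-0.03) each turned positive in some fits with 1 library left out. Negative signs over all genes were not counted. For QDG against WKY 1 of the 7 was called, beside 20.9% of all genes tested, and 6 had a positive difference. The median log2 fold change was 0.08 there, against 0.01 over all genes, and the median absolute value 0.08 against 0.12. Each pair of these comparisons shares 1 group of libraries.

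Ratios of 2 genes within a library do not depend on how that library was scaled, so 5 ratios were compared in the 3 pairs of groups, 15 tests in all. The Sod2 to Sod1 ratio, mitochondrial to cytosolic dismutase transcript, was 1.25 to 1.497 in WKY (median 1.30), 1.29 to 1.41 in SHR (median 1.32) and 1.26 to 1.38 in QDG-treated SHR (median 1.32). It did not differ between groups beyond the spread (two-sided exact permutation p from 0.816 to 0.950). The Hmox1 to Nfe2l2 ratio was 0.419 to 0.689 in WKY (median 0.562), 0.355 to 0.686 in SHR (median 0.458) and 0.332 to 0.440 in QDG-treated SHR (median 0.386). Its fall from WKY to QDG-treated SHR, 0.697 times in the mean of the logs, had an exact permutation p = 0.00649 and a value of 0.0974 after Benjamini-Hochberg adjustment over the 15 tests, so it did not pass.

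The Nqo1 to Nfe2l2 ratio was 0.377 to 0.473 in WKY (median 0.404), 0.418 to 0.545 in SHR (median 0.472) and 0.381 to 0.497 in QDG-treated SHR (median 0.407). SHR was 1.15 times WKY with an exact permutation p = 0.0303, adjusted 0.227. The Cat to Nfe2l2 ratio was 4.06 to 5.28 in WKY (median 4.83), 4.35 to 5.61 in SHR (median 5.40) and 4.47 to 5.87 after QDG (median 5.41). For QDG against WKY the exact permutation p was 0.0606, adjusted 0.303. The Gclc to Nfe2l2 ratio stayed between 0.289 and 0.364 over all libraries, with exact permutation p from 0.630 to 0.939. In all 15 tests the groups overlapped and the adjusted p was above 0.05. For Nqo1 and Cat, SHR against WKY passed as a level in the fit across all genes and did not pass as a ratio to Nfe2l2 in this test.

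**Figure D3:**
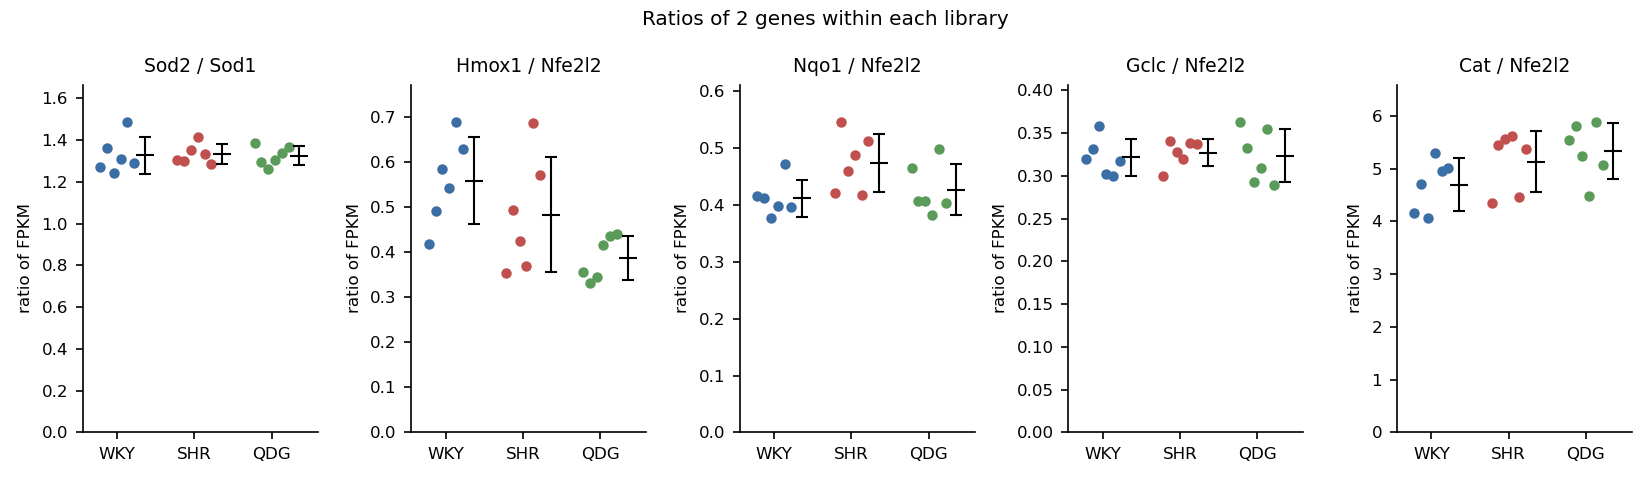
Ratio of the FPKM of 2 genes within each library (vertical axes, linear from 0) for the 3 groups, with the arithmetic mean and SD at the right of each group (n = 6). Hmox1 to Nfe2l2 runs from 0.332 to 0.440 in QDG-treated SHR and reaches 0.689 in WKY, and Sod2 to Sod1 centres on medians of 1.30 to 1.32 in all groups.

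Whether Nfe2l2 varied from library to library together with the other 6 genes was examined on deviations from the group means of log2(FPKM + 1), over 18 libraries, by permutation within groups (two-sided, 6 pairs). Gclc moved with Nfe2l2, with r = 0.71 (permutation p = 0.00208, adjusted 0.0125) and rho = 0.55 (permutation p = 0.0261, adjusted 0.157). Without the 2 libraries of most extreme Nfe2l2, SHR replicate 5 and QDG replicate 4, r was 0.62. The group means were not recomputed when these 2 were left out. Within the groups r was 0.86 for WKY, 0.85 for SHR and 0.37 after QDG. The relation no longer passed without SHR replicate 5 (r = 0.63, permutation adjusted p = 0.130), without WKY replicate 5 (r = 0.64, permutation adjusted p = 0.0728) or when each library was centred on the median of all its genes (r = 0.58, permutation adjusted p = 0.0736).

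For Hmox1 r was 0.29 (permutation p = 0.319, adjusted 0.491) and rho was 0.12 (permutation p = 0.670). With 1 library left out r ran from -0.13 to 0.41, so leaving out 1 library was enough to turn its sign. It was -0.26 without the 2 extreme libraries. Within the groups r for Hmox1 was -0.79 for WKY, 0.59 for SHR and 0.56 after QDG. For Nqo1 r was 0.24 (permutation p = 0.355, adjusted 0.491; rho = 0.16, permutation p = 0.536) and 0.27 without them, and turned to -0.07 after median centring. For Cat r was 0.03 (permutation p = 0.922, adjusted 0.922; rho = -0.03, permutation p = 0.925) and 0.14 without them, and -0.04 after median centring. Sod1 had r = -0.22 (permutation p = 0.409, adjusted 0.491; rho = -0.34, permutation p = 0.195) and -0.06 without them. Sod2 tended the other way from Nfe2l2, with r = -0.45 (permutation p = 0.0746, adjusted 0.224; rho = -0.39, permutation p = 0.122) and -0.34 without them. Within WKY, SHR and QDG-treated SHR, in that order, r was 0.61, -0.14 and 0.09 for Nqo1 and 0.41, -0.41 and -0.38 for Cat. In the same order r was 0.03, 0.01 and -0.93 for Sod1 and -0.42, -0.12 and -0.81 for Sod2. After median centring r for Sod2 was -0.66 (permutation adjusted p = 0.0105), and it also passed without WKY replicate 1 (r = -0.60, permutation adjusted p = 0.0459). Among the NRF2 targets, Gclc was the 1 gene whose Pearson r with the Nfe2l2 transcript passed under the scaling as deposited. Its rho did not pass (permutation adjusted p = 0.157). Over the 18 libraries, group differences included, at least 47 other genes kept had a higher r with Nfe2l2 than Gclc (0.75).

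**Figure D4:**
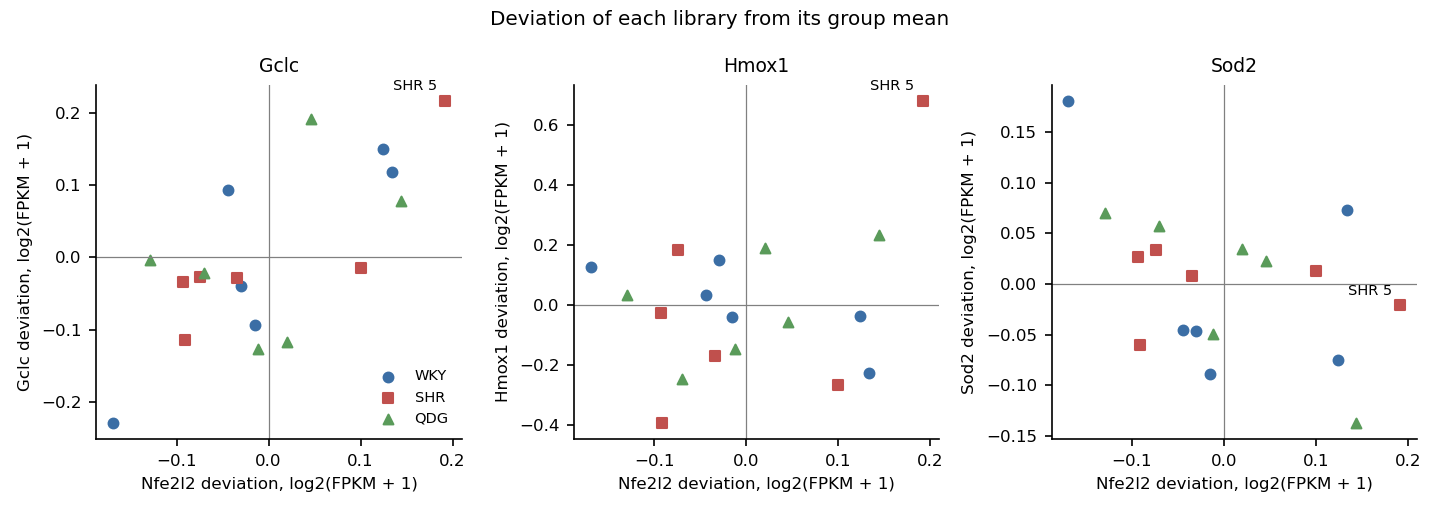
Deviation of each library from its group mean in log2(FPKM + 1), Nfe2l2 on the horizontal axis and Gclc, Hmox1 or Sod2 on the vertical axis. Colours and shapes give the group. Gclc rises with Nfe2l2 (r = 0.71), while for Hmox1 SHR replicate 5 stands alone at the upper right.

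The gene most like each member over the 18 libraries was the one with the highest Pearson r of log2(FPKM + 1) among all other genes kept, given here by identifier and as a description. For Sod2 it was ENSRNOG00000001440 (r = 0.94), with means of 661 ± 45.5 FPKM for WKY and 670 ± 18.5 for SHR (SD, n = 6 each). For Nfe2l2 it was ENSRNOG00000024705 (r = 0.90), with means of 15.3 ± 2.50 FPKM for WKY and 17.5 ± 2.59 for SHR (SD, n = 6 each). Gclc was followed most closely by ENSRNOG00000012089 (r = 0.88) and Nqo1 by ENSRNOG00000014485 (r = 0.87), the latter with means of 21.1 ± 2.16 FPKM for WKY, 28.8 ± 1.56 for SHR and 26.5 ± 2.40 after QDG (SD, n = 6 each). Among the members themselves the closest pairs over the 18 libraries were Gclc with Nfe2l2 (r = 0.75), Sod1 with Sod2 (r = 0.65) and Nqo1 with Cat (r = 0.57). These values include the differences between groups. On deviations from the group means r was 0.71, 0.63 and 0.32 for these pairs, and 0.44 for Nqo1 with Gclc. The points of each of these correlations share a library, with its depth and scaling.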

How the data were processed

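Heart RNA was measured in 18 libraries, 6 per group. Trizol-extracted RNA was depleted of rRNA and made into libraries with a NEB kit, per the labels' protocols. The authors deposited 1 value per gene and library, read here as FPKM because values are not whole and library totals differ (598626 to 676288). The unit is not named in the files, and absolute depth is unknown. The submitters' processing notes name limma. Not given in the sources used here are the aligner, the counter, the build, the annotation, whether counting used strand, and how reads shared by similar or overlapping genes were assigned.

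A gene was kept if 6 or more libraries reached 1 FPKM (17397 genes), and log2(FPKM + 1) was tested with limma 3.58.1 (R 4.3.3, statmod 1.5.0; trend, robust), over all 18 libraries with a mean per group, two-sided, with Benjamini-Hochberg adjustment over all genes kept and a threshold of 0.05. The scale understates changes of low genes. Ratios used exact permutation tests and correlations 100000 permutations (Python 3.11.15, scipy 1.17.1). The fit was checked on simulated data with independent normal noise and added differences larger than any seen in the members. That check does not cover differences as small as the members'.

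The members and lists were chosen with earlier results of these data known. All 7 members were named. The 8 pathway lists and 6 cell type lists were not tested: 0 of 47357 RefSeq entries (GRCr8) carried an Ensembl identifier, so the heart label was not checked against markers either. For each member the most similar gene was sought by Pearson r, and the 4 of highest r are given. The labels name no batch. Pairs of libraries correlated at 0.946 to 0.982 in log2(FPKM + 1). In deviations from the group means, same-numbered libraries of different groups correlated at -0.06 to 0.19, so numbers were not taken as pairs. Alternatives were median centring, quantile normalization, rescaling without the 10 most abundant genes, pseudocounts of 0.1 and 0.01, no filter, a filter at 5 FPKM, limma without trend or with sample weights, 12 libraries alone, a replicate block and each library left out.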

Additional observations from a re-analysis of the deposited data

Results flagged for a closer look

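Of 36 groups of 6 values examined (7 genes and 5 ratios in 3 groups), 1 held a library that stood apart. The bound used is one that about 1 in 20 groups of normally distributed values pass by chance, and is not a rate measured in these data. Gclc was at 6.997 FPKM in SHR replicate 5 and between 5.36 and 5.81 in the other SHR libraries. The same library was the highest of its group for Hmox1 (14.2 FPKM) and Nfe2l2 (20.7 FPKM), without meeting the same bound there. Over all genes kept, SHR replicate 5 stood apart above its group in 2.11% and each other SHR library in 0.351% to 0.902%. The highest such shares in the other groups were similar, 2.16% for WKY replicate 5 and 2.31% for QDG replicate 4. Without SHR replicate 5 the Gclc difference of SHR from WKY was 0.07 in place of 0.11 on the log2 scale (limma adjusted p = 0.557).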

How the results depend on the processing

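Of 609 alternative values of the members' fold changes, 597 stayed on their side of the threshold, 11 gained the call (all Hmox1 in QDG against WKY), 1 lost it (Cat in SHR against WKY) and 0 reversed a call. Nqo1 was called in SHR against WKY in all 29 alternatives (log2 fold change 0.24 to 0.31). For SHR against WKY, quantile normalization left 1 member called in place of 2. For QDG against WKY, 2 members in place of 1 were called with median centring, quantile normalization, rescaling without the 10 most abundant genes, the filter at 5 FPKM, sample weights, 12 libraries alone and the replicate block, and 1 to 2 with 1 library left out. The causes were not tested. The count of all genes called for QDG against SHR was 51 (36 higher, 15 lower), and became 77 with median centring (46 higher, 31 lower), 79 with quantile normalization, 104 with sample weights, 30 without a filter and 29 to 69 with 1 library left out, while 0 members were called throughout. Rescaling moved no median of all genes by over 0.1. With 1 library left out the Hmox1 to Nfe2l2 ratio of QDG against WKY differed by -0.60 to -0.46 (log2) and passed without WKY replicate 1 (-0.60, exact permutation, adjusted p = 0.0325). The correlation of Nfe2l2 with Gclc ran from 0.63 to 0.76 and that with Sod2 from -0.60 to -0.24, and median centring gave 0.58 and -0.66. A replicate block called 4760, 40 and 4028 genes for SHR against WKY, QDG against SHR and QDG against WKY and changed no other member's call than Hmox1's. In deviations from the group means, 5 of the 18 libraries correlated best, among libraries of the other groups, with one of their own number. The others did not. Relative depth of single libraries was not estimated, so small differences in Gclc, Nqo1 and Hmox1, the lowest members, are limited by a counting error that is unknown.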
